A study of Mus musculus with 6 samples.

Results

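The B cell genes described here are 34 genes outside the immunoglobulin loci, chosen by symbol from the 49585 genes of the expression table, and all 34 were found and tested. They were measured in poly(A) RNA of regulatory T cells (Tregs), a CD4 lineage that depends on Foxp3 and holds other lymphocytes in check. Splenic cells of C57BL/6 mice aged 7 weeks had been sorted as CD4 and YFP positive and negative for B220, a CD45 form that most mouse B cells carry, and the design text adds CD25 to the gate. They were then cultured for 24 hours on plates coated with anti-CD3 and anti-CD28. The libraries comprise 3 labelled Bach2-cKO, read here as a knockout of Bach2 in some cells, and 3 labelled as wild type (WT). The labels do not name the Cre driver or the cells that lost Bach2, and they do not say what drives YFP or whether the libraries of a group came from separate mice, so p-values measure only how far these samples spread, which may be technical.

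B cells recognise antigen through surface immunoglobulin coupled to CD79A and CD79B, whose tails recruit the kinases LYN, BLK, SYK and BTK and the adaptor BLNK. Coreceptors such as CD21 raise this signal, and receptors such as CD22, CD72, SIGLEC-G and the IgG receptor FCGR2B lower it. PAX5 and EBF1 hold the B cell programme, while OCT2, its coactivator OCA-B, SPI-B and BCL11A act beside them. BACH2 itself is a repressor that B cells and T cells both express, and in B cells it delays the change to plasma cells.

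Values are FPKM, read counts divided by gene length and by the library's total, from libraries of 27697735 to 43884431 reads. Bach2, the labelled target, was at 88.9, 104.5 and 120.8 FPKM in the Bach2-cKO libraries and at 112.0, 111.4 and 99.4 FPKM in the WT libraries, and the groups overlapped. This value adds up all exons and no source used here names the deleted part. It therefore does not check the labels, on which every direction below rests. Foxp3, which defines the Treg lineage, stood at 104.2 to 153.5 FPKM in Bach2-cKO and 107.6 to 127.3 FPKM in WT, and Cd3e, a T cell receptor subunit, was at 150.7 to 180.9 and 170.1 to 194.5 FPKM. Reads of the 34 B cell genes made up 0.536%, 0.667% and 0.586% of the Bach2-cKO libraries and 0.410%, 0.553% and 0.407% of the WT libraries. WT replicate 2 stood apart from the other WT libraries in these genes, at a level between those of Bach2-cKO replicates 1 and 3. Values without it are therefore given beside the members whose call or level it moves. That library was picked out from these same values, so those without it give its weight and do not show that a gene rose. In bulk RNA a change in the number of B cells and a change in RNA per B cell cannot be told apart.

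B cell transcripts were abundant in all 6 libraries of these B220-negative sorts. Cd79a, the signalling chain of the B cell receptor, was at 286.2, 350.4 and 334.2 FPKM in Bach2-cKO and at 234.3, 358.1 and 209.9 FPKM in WT. In FPKM, which is per length, that level was above that of Cd3e in each library. In 8 of the 34 genes every library was at or above 100 FPKM, and Cr2 was the sole member near the lower limit of the test, at 2.13, 2.64 and 1.85 FPKM in Bach2-cKO and 2.24, 2.38 and 1.66 FPKM in WT. Cr2 encodes CD21, the complement receptor of mature and above all marginal zone B cells.

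Of the 34 genes 12 rose, 0 fell and 22 did not pass in the Bach2-cKO libraries (limma on log2-transformed FPKM + 1, threshold 0.05 for p adjusted by the Benjamini-Hochberg method over 13766 genes), and 17 of them passed an unadjusted p under 0.05. Among all genes tested 7.02% were called higher and 8.31% lower. The median log2 fold change of the 34 was 0.33, or 1.26-fold, against a median of -0.017 over all genes tested, and 30 of the 34 had a positive value. The 3 Bach2-cKO values lay wholly above the 3 WT values for 13 genes and wholly below for 0, where 15.5% of all genes tested lay wholly above and 20.1% wholly below. Left out one at a time, the libraries set the count strongly: 18 rose without WT replicate 2, 7 without WT replicate 1 or WT replicate 3, and 8 if Bach2-cKO replicate 2 was left out. Their median was 0.52 without WT replicate 2 and 0.27 to 0.42 without any other library. Across all genes, 967 were called higher in the full fit and 648 once WT replicate 2 was dropped. Dropping WT replicate 1 gave 492 such genes, and dropping WT replicate 3 gave 722. For Bach2-cKO, 485 remained when replicate 2 was removed, 578 for replicate 1 and 1200 for replicate 3. How far the lower member counts follow a general loss of calls was not tested. Cd79a, Cd79b, Blk, Lyn, Blnk, Tnfrsf13c, Fcrla and Ebf1 passed without WT replicate 2 and in no other fit with 1 library left out. The smallest log2 fold changes in such fits were 0.15 for Cd79a, 0.43 for Cd79b and 0.18 for Tnfrsf13c. The 7 genes that passed with each library left out in turn were Fcrl5, Mzb1, Cd22, Pou2af1, Bcl11a, Tlr9 and Pax5. Of these Fcrl5 and Pou2af1 did not pass when no filter on low values was applied, where 5 of the 34 rose. Among 19 members counted here as B-restricted 5 rose, with a median log2 fold change of 0.31. Among the 15 counted as shared with other cells 7 rose, with a median of 0.38. Mzb1, Pou2af1, Bcl11a and Tlr9 belong to the shared class.

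**Figure D1:**
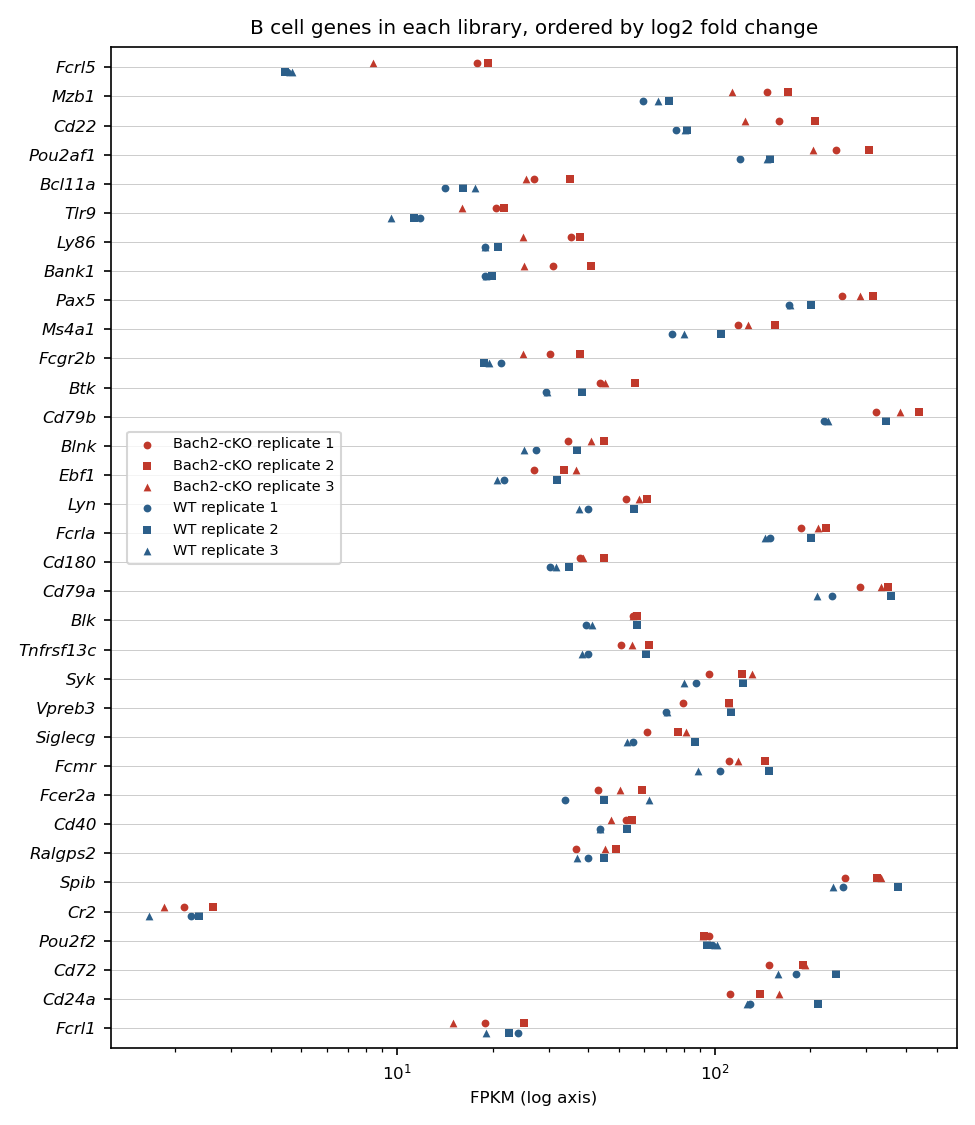
FPKM of each of the 34 B cell genes (log axis) in the 3 Bach2-cKO libraries (red) and the 3 WT libraries (blue), 1 symbol per replicate number, with genes ordered from the largest to the smallest log2 fold change. In the upper rows all red symbols lie to the right of the blue ones, and from Cd79b downwards, Cd180 excepted, the blue square of WT replicate 2 lies among or beyond the red symbols.

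Among the receptor chains and the genes that help to assemble them, 1 of 4 rose. Mzb1 (chromosome 18, 35647266 to 35649367, GRCm38) encodes an endoplasmic reticulum chaperone of immunoglobulin assembly that is abundant in marginal zone B cells and plasma cells. Its level was 146.0, 169.9 and 113.1 FPKM in Bach2-cKO and 59.3, 71.6 and 66.1 FPKM in WT, which gives 1.09 as log2 fold change (SE 0.14, adjusted p = 0.00322 by limma), and the groups were far apart. Cd79b (chromosome 11, 106311341 to 106314762), the second signalling chain, was at 321.0, 437.8 and 381.7 FPKM in Bach2-cKO and at 220.0, 345.4 and 227.9 FPKM in WT (log2 fold change 0.54, adjusted p = 0.0912). Here WT replicate 2 lay above the lowest Bach2-cKO library, and without it the log2 fold change was 0.75 (adjusted p = 0.0197). Cd79a (chromosome 7, 24897381 to 24902197) had a log2 fold change of 0.31 (SE 0.19, adjusted p = 0.315), and 0.54 without WT replicate 2 (adjusted p = 0.0286). Vpreb3, which binds immunoglobulin chains inside the cell, was at 79.2, 111.1 and 111.0 FPKM in Bach2-cKO and at 70.1, 112.5 and 70.5 FPKM in WT, and overlapped too; without WT replicate 2 its log2 fold change was 0.49 (limma adjusted p = 0.102).

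Among the kinases and adaptors, 2 of 7 rose. Bank1, a scaffold that joins LYN to calcium release, was at 31.0, 40.6 and 25.1 FPKM in Bach2-cKO, against 19.0, 19.9 and 19.0 FPKM in WT (log2 fold change 0.68, SE 0.15, adjusted p = 0.0248). Btk, the kinase that activates phospholipase C gamma, was at 43.4, 56.2 and 45.1 FPKM in Bach2-cKO and 29.5, 38.3 and 29.8 FPKM in WT (0.55, adjusted p = 0.0296). The call of Bank1 was lost without Bach2-cKO replicate 1 or any 1 of the WT libraries, and that of Btk without Bach2-cKO replicate 2, WT replicate 1 or WT replicate 3. The kinase genes Blk, Lyn and Syk had log2 fold changes of 0.30, 0.38 and 0.27 and the adaptor gene Blnk of 0.42, and none of these passed. For each of them WT replicate 2 was 1.41 to 1.47 times the mean of the other WT libraries, and without it Blk, Lyn and Blnk passed while Syk was at 0.46 (limma adjusted p = 0.0920). Ralgps2, a Ras family exchange factor that is also expressed outside B cells, had a log2 fold change of 0.098.

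Receptors that lower the B cell signal and their Fc receptor-like relatives covered the whole range of the 34 genes. Fcrl5 (chromosome 3, 87435773 to 87500678), an inhibitory receptor of marginal zone and B1 cells, was at 17.9, 19.4 and 8.41 FPKM in Bach2-cKO and at 4.50, 4.43 and 4.66 FPKM in WT. The WT libraries were nearly equal, Bach2-cKO replicate 3 lay between them and the others, and the log2 fold change was 1.47 (SE 0.27, adjusted p = 0.0113). Cd22 (chromosome 7, 30865402 to 30880342), which encodes a lectin that recruits phosphatases to the receptor, was at 159.4, 206.6 and 124.7 FPKM in Bach2-cKO and 75.6, 82.0 and 80.8 FPKM in WT, without overlap (log2 fold change 1.00, SE 0.16, adjusted p = 0.00681). Fcgr2b, the inhibitory IgG receptor that myeloid cells carry as well, rose by 0.60 (adjusted p = 0.0282), and that call was lost in 5 of the 6 fits with 1 library left out. Its extracellular exons resemble those of Fcgr3, which makes its count less certain.

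The other members of that group did not follow. Fcrl1 (chromosome 3, 87376387 to 87402934), the activating relative beside Fcrl5 in the same cluster, was at 18.9, 25.1 and 15.0 FPKM in Bach2-cKO and 24.0, 22.6 and 19.0 FPKM in WT, with a log2 fold change of -0.17 (SE 0.18, adjusted p = 0.567). Cd72, a lectin that dampens receptor signals, was at 148.6, 188.9 and 192.9 FPKM in Bach2-cKO and 179.7, 241.2 and 157.8 FPKM in WT (-0.11, adjusted p = 0.691). It overlaps Tesk1 on the opposite strand, and no source used here says whether counting used strand. Without Bach2-cKO replicate 3 the log2 fold change of Fcrl1 was 0.0036, and without WT replicate 2 that of Cd72 was 0.060, so neither sign held in all fits. Siglecg, the lectin that restrains B1 cells above all, and Fcrla, an intracellular relative that binds immunoglobulin, had log2 fold changes of 0.19 and 0.34 and did not pass. Without WT replicate 2 that of Siglecg was 0.41 (limma adjusted p = 0.0946), and that of Fcrla was 0.50 and passed (adjusted p = 0.0220). Fcrla shares its locus on the same strand with Gm2962, at a mean of 17.3 FPKM, so part of its reads may belong there.

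**Figure D2:**
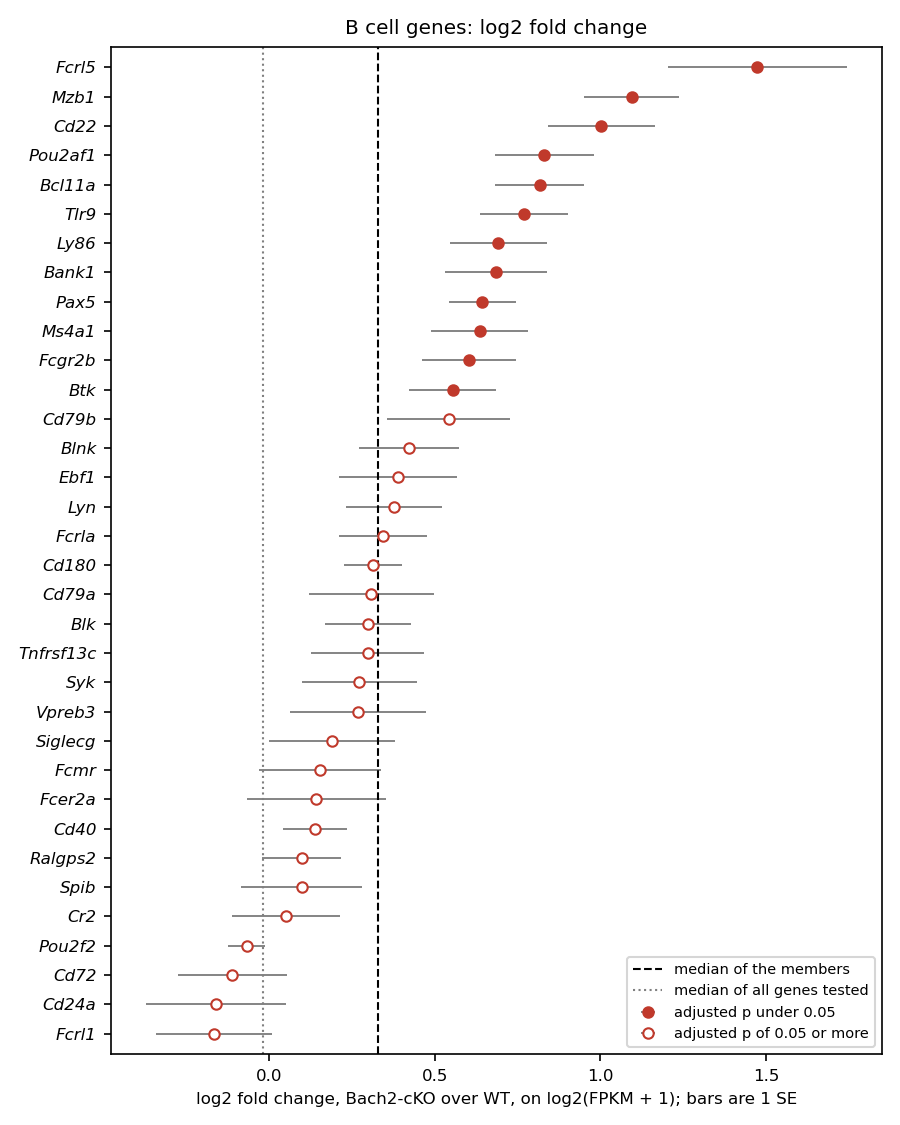
Log2 fold change, Bach2-cKO over WT, of each of the 34 B cell genes on log2(FPKM + 1), with bars of 1 SE; filled points passed an adjusted p under 0.05. The dashed line is the median of the 34 genes (0.33) and the dotted line that of all genes tested (-0.017); Fcrl5, Mzb1 and Cd22 lie farthest to the right and Fcrl1, Cd24a and Cd72 farthest to the left.

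Among activating and survival receptors 1 of 7 rose. Ms4a1 (chromosome 19, 11249675 to 11266241), which encodes CD20, was at 118.3, 155.2 and 127.1 FPKM in Bach2-cKO and 73.6, 104.4 and 79.9 FPKM in WT (log2 fold change 0.64, SE 0.15, adjusted p = 0.0268). The groups did not overlap, but its call was lost without Bach2-cKO replicate 2, WT replicate 1 or WT replicate 3. Tnfrsf13c, the receptor for the survival factor BAFF, had a log2 fold change of 0.30, Fcmr, an IgM receptor, 0.15, Fcer2a, the low-affinity IgE receptor CD23, 0.14, and Cd40, the receptor for T cell help that macrophages and dendritic cells share, 0.14. None of them passed, nor did Cr2 at 0.051. Without WT replicate 2 Tnfrsf13c passed at 0.50 (limma adjusted p = 0.0257), and Fcmr was at 0.36 (adjusted p = 0.142). Cd24a, a glycoprotein of immature B cells that other blood cells share and that has processed copies elsewhere in the mouse genome, was at 111.3, 138.7 and 159.7 FPKM in Bach2-cKO and 129.5, 210.8 and 126.4 FPKM in WT (-0.16, adjusted p = 0.651, and 0.078 without WT replicate 2).

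Of the 3 innate sensors 2 rose. Tlr9 (chromosome 9, 106222598 to 106226883), the sensor of unmethylated DNA, was at 20.5, 21.7 and 16.0 FPKM in Bach2-cKO, against 11.8, 11.3 and 9.56 FPKM in WT (log2 fold change 0.77, SE 0.13, adjusted p = 0.00879). Ly86 and Cd180 encode MD-1 and RP105, which form a receptor complex together. Ly86 was at 35.3, 37.8 and 24.9 FPKM in Bach2-cKO and 18.9, 20.8 and 18.9 FPKM in WT (0.69, adjusted p = 0.0196), a call lost in 4 of the 6 fits with 1 library left out. Cd180 was at 37.7, 44.7 and 38.4 FPKM in Bach2-cKO and 30.2, 34.7 and 31.6 FPKM in WT, also without overlap (0.31, adjusted p = 0.0513), and passed under median-ratio scaling, under a library total without B cell and immunoglobulin genes and by limma-voom. It overlaps Mast4 on the opposite strand, at a mean of 10.4 FPKM.

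Of the 6 transcription factors and coactivators 3 rose. Pou2af1 (chromosome 9, 51213708 to 51240080) encodes OCA-B, the coactivator of OCT2, and was at 239.9, 305.1 and 204.1 FPKM in Bach2-cKO and 120.0, 149.6 and 146.4 FPKM in WT (log2 fold change 0.83, SE 0.15, adjusted p = 0.0107). Bcl11a, a zinc finger factor that plasmacytoid dendritic cells also need, was at 26.9, 35.0 and 25.4 FPKM in Bach2-cKO and 14.1, 16.2 and 17.7 FPKM in WT (0.82, adjusted p = 0.00731). Pax5 (chromosome 4, 44524757 to 44710487) was at 251.8, 315.9 and 286.0 FPKM in Bach2-cKO and 170.7, 201.4 and 172.3 FPKM in WT (0.64, SE 0.10, adjusted p = 0.00623). All 3 genes were without overlap. Ebf1, whose product works with PAX5 at the top of the B cell programme, had a log2 fold change of 0.39 (adjusted p = 0.184), and 0.58 without WT replicate 2 (adjusted p = 0.0423). Spib, an ETS factor that plasmacytoid dendritic cells share, was at 257.9, 322.9 and 333.4 FPKM in Bach2-cKO and 254.0, 377.7 and 235.9 FPKM in WT (log2 fold change 0.098, and 0.31 without WT replicate 2, limma adjusted p = 0.176). Pou2f2, which encodes OCT2 and is also expressed in T cells, hardly varied, at 96.1, 92.4 and 91.7 FPKM in Bach2-cKO and 97.9, 94.5 and 101.6 FPKM in WT.

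To read each gene against the others, the level the members share was removed: in each library the median over the 34 genes of the log2 deviation from the gene's own mean was subtracted. This shared log2 level was 0.033, 0.30 and 0.14 in the Bach2-cKO libraries and -0.31, 0.11 and -0.36 in the WT libraries, so the groups overlapped through WT replicate 2. After subtraction 10 genes lay within 0.1 (log2) of no difference, among them Cd79a, Blk, Lyn, Blnk, Ebf1, Fcrla and Tnfrsf13c. The relative log2 difference of Fcrl5 was 1.13, that of Mzb1 0.75 and that of Cd22 0.66, at limma adjusted p of 7.47e-05, 0.00274 and 0.0103, and these 3 were called higher than the shared level while 0 were called lower. Of all genes tested 1.95% were called higher and 17.4% lower in this fit. The subtracted level was higher in Bach2-cKO on average, which moves genes outside the members down and centres the members. These shares therefore follow in part from the subtraction and are no yardstick for the members. The fit gave nearly the same error to each gene, since it took that error from all genes of a similar level. For Fcrl5 the SE was 0.24 in this fit and 0.39 from its own variance, and for Fcrla 0.20 and 0.025. With each gene's own variance instead, an alternative chosen after seeing the data, 0 of the 34 passed in limma without moderation, with 6 higher and 2 lower at an unadjusted p under 0.05, and 0 of all genes tested passed. Mzb1 and Cd22 also lost the call without Bach2-cKO replicate 2 or WT replicate 1, and Cd22 without Bach2-cKO replicate 1.

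Relative to the shared level, the 3 values of Fcrl5, Mzb1, Cd22, Pax5, Ms4a1 and Btk in Bach2-cKO lay wholly above those in WT, which is 6 of 34 genes, where 2.2% of all genes tested did so. For another 6, Ralgps2, Spib, Cr2, Cd72, Cd24a and Fcrl1, they lay wholly below, where 35.9% of all genes tested did so. Before the subtraction 15.5% of all genes tested lay wholly above and 20.1% wholly below. The subtraction itself moved these shares, so they do not show that the members were enriched or depleted. The relative log2 difference was -0.51 for Fcrl1, -0.51 for Cd24a and -0.46 for Cd72, with adjusted p of 0.0728, 0.0545 and 0.0814. Cd24a and Cd72 were called lower by limma-voom, without WT replicate 2 and with the replicate number as a block. Cd24a was also called lower without Bach2-cKO replicate 3, and Fcrl1 without WT replicate 2 and with the block. Pou2af1, at 0.49 (adjusted p = 0.0631), was called higher by limma-voom, with the block, without WT replicate 2 and without Bach2-cKO replicate 3. Pou2f2, at -0.41 (limma adjusted p = 0.114) with overlapping groups, was called lower without WT replicate 2 and with the block.

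**Figure D3:**
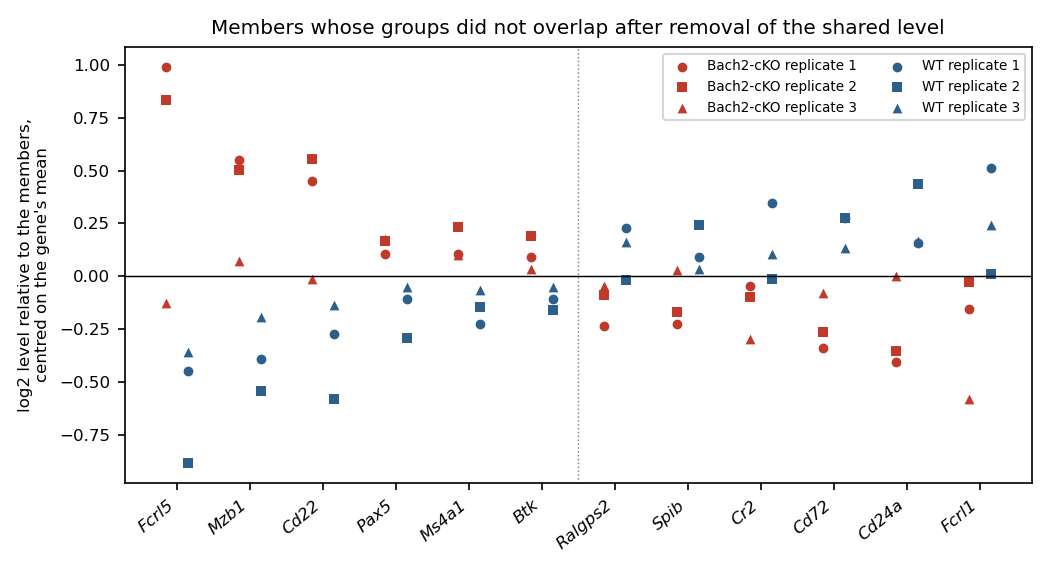
Log2 level of 12 B cell genes in each library after removal of the level shared by the 34 genes, centred on the gene's mean over libraries, for the 3 Bach2-cKO libraries (red) and the 3 WT libraries (blue). Left of the dotted line are the 6 genes whose Bach2-cKO values all lay above the WT values, and right of it the 6 whose values all lay below; Fcrl5 had the widest gap between group means (1.13).

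The 34 genes also differed in how they varied within a group. In WT, replicate 2 was the highest library for 27 genes, and its ratio to the mean of replicates 1 and 3 ran from 0.924 for Fcgr2b to 1.65 for Cd24a. In Bach2-cKO, replicate 1 was the lowest library for 21 genes and replicate 3 for 13, and the ratio of replicate 3 to the mean of replicates 1 and 2 ran from 0.451 for Fcrl5 to 1.28 for Cd24a. The ratios came from different libraries, and across the 34 genes they went together, with a Pearson r of 0.76 and a Spearman rho of 0.75, a description over genes that are not independent. The 16 genes with a WT replicate 2 ratio of at least 1.3 had a Bach2-cKO replicate 3 ratio of 0.927 to 1.28 and a median log2 fold change of 0.30. The other 18 had 0.451 to 1.06 and a median of 0.62. Among the 16, which include Cd79a, Cd79b, Vpreb3, Ebf1, Spib, Cd72 and Cd24a, 1 gene passed, Ms4a1, and among the other 18, with Fcrl5, Mzb1, Cd22, Pou2af1, Bcl11a, Tlr9, Ly86, Bank1, Fcgr2b, Pax5 and Btk, 11 passed. A high WT replicate 2 both lowers the fold change and widens the spread it is tested against, so these counts are not independent of the split, which was made after seeing the data. The other 7 of the 18 did not pass: Cd180, Fcer2a, Cd40, Ralgps2, Cr2, Pou2f2 and Fcrl1. Fcrl1 and Cd22 had the same ratios, 1.05 and 0.682, with log2 fold changes of -0.17 and 1.00.

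**Figure D4:**
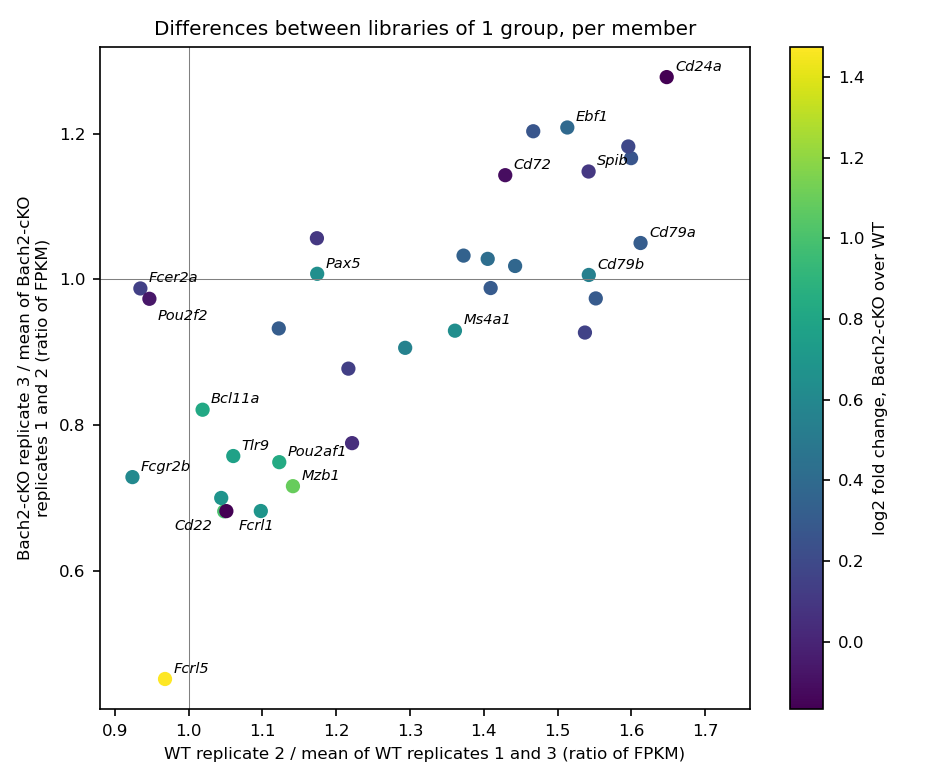
Each point is 1 of the 34 B cell genes, placed by the FPKM ratio of WT replicate 2 to the mean of WT replicates 1 and 3 (x axis) and of Bach2-cKO replicate 3 to the mean of Bach2-cKO replicates 1 and 2 (y axis), and coloured by log2 fold change, Bach2-cKO over WT. Fcrl5, Mzb1, Cd22 and Pou2af1 lie at the lower left and Cd24a, Ebf1, Spib and Cd72 at the upper right, with a Pearson r of 0.76; the points of Cd22 and Fcrl1 nearly coincide.

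Promoters of genes from both ends of the range are shown because their log2 fold changes differed although all belong to the B cell programme. Of those shown, only Fcrl5 and Cd22 were called relative to the shared level. The RefSeq windows on GRCm38.p6, from 250 bases before to 50 after the start site, were matched for 27 of the 34 genes in 34 windows. Capitals mark matches, on either strand, to the octamer ATGCAAAT bound by OCT2, to GAGGAAGT bound by PU.1 and SPI-B, to the EBF1 palindrome, and to TGANTCA. The last is a loose form, with any middle base, of the AP-1 core that BACH2 sites contain. The first 3 sequences belong to genes that rose, at ranks 3, 1 and 6 of the 34 by log2 fold change, Cd79a lay near the shared level, and the last 2 belong to genes near the low end.
Cd22 (chr7:30878979-30879278, minus strand): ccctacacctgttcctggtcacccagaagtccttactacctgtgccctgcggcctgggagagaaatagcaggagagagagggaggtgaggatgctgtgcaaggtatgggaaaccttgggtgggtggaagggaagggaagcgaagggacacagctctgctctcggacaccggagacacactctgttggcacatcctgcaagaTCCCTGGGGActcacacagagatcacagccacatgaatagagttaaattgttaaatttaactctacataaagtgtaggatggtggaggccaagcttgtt
Fcrl5 (chr3:87435532-87435831, plus strand): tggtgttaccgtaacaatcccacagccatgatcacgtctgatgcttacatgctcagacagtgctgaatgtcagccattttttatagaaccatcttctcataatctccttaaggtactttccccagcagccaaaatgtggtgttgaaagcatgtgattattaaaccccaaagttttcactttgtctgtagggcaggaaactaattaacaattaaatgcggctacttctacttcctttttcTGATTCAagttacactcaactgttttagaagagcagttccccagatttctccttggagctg
Tlr9 (chr9:106222348-106222647, plus strand): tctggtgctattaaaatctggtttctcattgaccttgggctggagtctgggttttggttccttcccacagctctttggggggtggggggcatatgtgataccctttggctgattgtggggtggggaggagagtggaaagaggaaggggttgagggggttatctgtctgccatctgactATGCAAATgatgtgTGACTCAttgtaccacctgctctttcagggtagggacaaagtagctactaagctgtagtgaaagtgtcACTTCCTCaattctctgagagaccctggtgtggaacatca
Cd79a (chr7:24897247-24897546, plus strand): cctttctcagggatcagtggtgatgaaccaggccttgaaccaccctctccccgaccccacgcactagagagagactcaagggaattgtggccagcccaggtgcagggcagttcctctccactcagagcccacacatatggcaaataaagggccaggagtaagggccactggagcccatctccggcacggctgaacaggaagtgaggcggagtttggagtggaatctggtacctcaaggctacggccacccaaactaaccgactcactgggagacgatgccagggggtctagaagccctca
Cd72 (chr4:43454577-43454876, minus strand): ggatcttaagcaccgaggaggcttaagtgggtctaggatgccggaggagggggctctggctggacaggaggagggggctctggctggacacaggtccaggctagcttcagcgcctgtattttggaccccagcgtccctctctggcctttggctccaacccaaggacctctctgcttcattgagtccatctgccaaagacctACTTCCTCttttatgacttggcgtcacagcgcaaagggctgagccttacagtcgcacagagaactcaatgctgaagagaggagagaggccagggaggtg
Fcrl1 (chr3:87376137-87376436, plus strand): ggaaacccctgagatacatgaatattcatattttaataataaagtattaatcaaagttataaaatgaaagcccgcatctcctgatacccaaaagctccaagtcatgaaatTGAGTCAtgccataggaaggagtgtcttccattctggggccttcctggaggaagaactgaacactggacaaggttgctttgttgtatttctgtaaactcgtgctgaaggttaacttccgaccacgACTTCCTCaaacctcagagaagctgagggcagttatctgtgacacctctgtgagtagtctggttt

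Matches stood both in genes that rose and in genes that did not pass. The octamer was in the windows of Tlr9, Vpreb3 and Blnk, 3 of 34 windows, where 1.74% of all 32851 promoter windows held it. The PU.1 and SPI-B letters were in those of Tlr9, Cd72 and Fcrl1, against 3.2% of all windows, and the EBF1 letters in that of Cd22, against 0.904%. The TGANTCA letters were in windows of Fcrl5, Tlr9, Fcrl1 and Fcer2a, against 7.81% of all windows. They stood before both Fc receptor-like neighbours, as TGATTCA for Fcrl5, which rose, and as TGAGTCA for Fcrl1, which did not pass. Since any middle base counted, a match does not show that the AP-1 core itself is present. The longer motif that joins TGANTCA to part of a MAF recognition element, and so overlaps those letters, was in 0 of the 34 windows and in 0.423% of all windows.

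Other genes of B cells and of their receptor pathway moved both ways. Of 34 tested genes of B cells outside the members, 8 rose and 3 fell (median log2 fold change 0.26), with 3 to 10 that rose and 2 that fell when 1 library was left out. Mef2c, a factor for B cell growth that other cells use as well, rose by 0.88 (limma adjusted p = 0.0101). Btla and Cd200, which encode surface proteins that T cells also carry, fell by 0.46 and 0.80. Of 23 tested genes of receptor signalling, 7 rose and 3 fell (median 0.13), with Malt1, a protease of the NF-kappaB pathway in B and T cells, higher by 0.81. With 1 library left out, 4 to 8 of them rose and 0 to 2 fell.

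Genes of B cell subsets and states gave separate values beside the members. Of 14 tested plasma cell genes 6 rose and 0 fell (median log2 fold change 0.43), with 5 to 9 that rose when 1 library was left out. Their summed level was 922.4, 995.5 and 850.7 FPKM in Bach2-cKO and 629.5, 650.5 and 683.2 FPKM in WT. In that sum WT replicate 2 was not apart. Xbp1 held 209.6 to 273.7 FPKM of it in Bach2-cKO and 111.6 to 145.0 FPKM in WT. Sec11c, which did not pass, held 234.8 to 248.1 and 198.6 to 236.5 FPKM of it. Prdm1, which encodes BLIMP-1 and which effector Tregs express, rose by 1.48, Xbp1 by 0.94 and Eaf2 by 1.23. Jchain, which joins IgM and IgA multimers and was named after its values were seen, rose by 1.38 (adjusted p = 0.00391 by limma), while Tnfrsf17, the defining BCMA gene of plasma cells, was under 1 FPKM in each library and Sdc1, which encodes CD138, was at a mean of 8.41 FPKM in Bach2-cKO and 8.66 FPKM in WT. Of 11 tested marginal zone genes, 2 rose (Plac8 by 1.34 and Asb2 by 1.14, both also expressed in T cells) and 1 fell (Rgs10), with a median of 0.30. The other 8 did not pass, at log2 fold changes of -0.54 for Cd1d1, -0.17 for Notch2, -0.0089 for Cd9, 0.077 for Pik3r4, 0.30 for Dtx1, 0.34 for Myof, 0.40 for S1pr3 and 0.56 for Cd36. Whether plasma cells or marginal zone cells have a part in the values of Mzb1, Fcrl5 and Pou2af1 was not tested.

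Markers of other cells that share some of these genes were also read. Of 20 myeloid markers 10 were under 1 FPKM in each library, among them Itgam, Csf1r and C1qa, and their summed level was 140.5 to 200.8 FPKM in Bach2-cKO and 105.1 to 115.5 FPKM in WT, with 2 of 8 tested higher (Cybb and Sirpa) and 0 lower. Cybb, an oxidase gene that B cells share, accounted for 66.6 to 83.0 FPKM in Bach2-cKO and 43.2 to 47.9 FPKM in WT. S100a8 was at 3.08, 17.5 and 27.7 FPKM in Bach2-cKO and 3.94, 4.21 and 5.14 FPKM in WT. S100a9 was at 2.73, 26.4 and 28.0 FPKM in Bach2-cKO and 4.81, 6.65 and 6.79 FPKM in WT. Neither passed. Of 13 dendritic cell markers 4 were under 1 FPKM in each library, including Siglech of plasmacytoid cells and Clec9a. Their summed level was 567.8 to 673.8 FPKM in Bach2-cKO and 586.3 to 718.9 FPKM in WT. Cst3 alone held 302.9 to 416.7 and 352.3 to 480.0 FPKM of it. Of 9 tested markers 2 were higher and 1 lower. Those higher were Ccr9 and Tcf4, both also genes of plasmacytoid cells, at log2 fold changes of 1.05 and 0.64 (limma adjusted p = 0.0156 and 0.0125), and the lower one was Flt3. T cell genes went the other way: of 24 tested, 12 fell and 1 rose (median -0.30, 0.81-fold), 7 to 16 fell with 1 library left out, and their sum was 4240.0 to 4871 FPKM in Bach2-cKO and 5837 to 6249.9 FPKM in WT. The part of these cells in the values of the 34 genes was not tested.

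**Figure D5:**
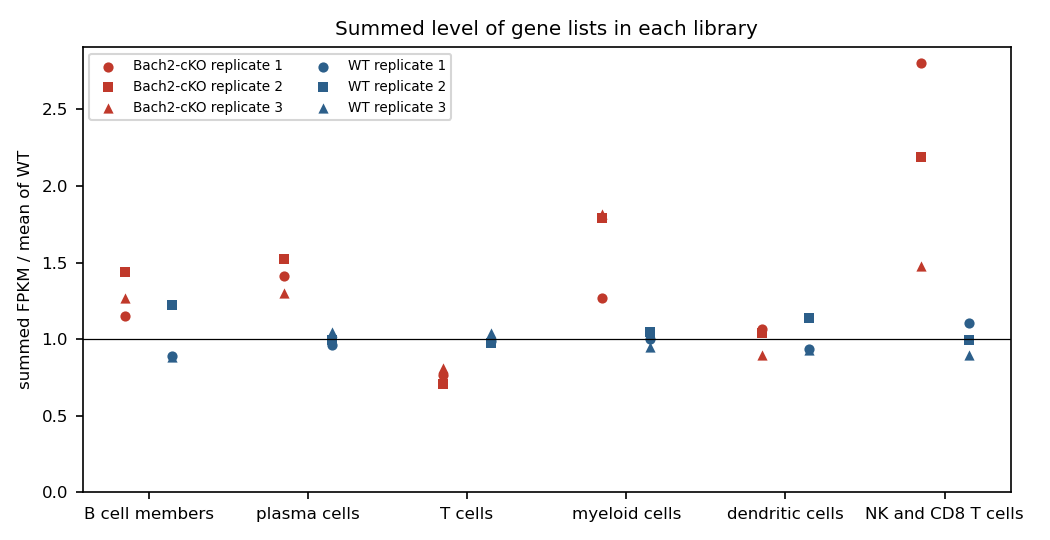
Summed FPKM of the 34 B cell genes and of 5 marker lists in each library, divided by the mean of the 3 WT libraries, for Bach2-cKO (red) and WT (blue). For the B cell genes the WT replicate 2 square lies among the Bach2-cKO symbols. The plasma cell sums, to which Xbp1 and Sec11c add most, are apart between groups (850.7 to 995.5 against 629.5 to 683.2 FPKM). The T cell sums lie lower in Bach2-cKO.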

How the data were processed

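The authors deposited FPKM per gene and library, and the submitters' processing notes name HISAT2 2.0.5, featureCounts 1.5.0-p3 and the build mm9, with no order. No source used here gives filters, annotation or strand setting. Gene positions equal those of GENCODE M21 (GRCm38) for 45128 of 49326 identifiers (91.5%), so positions are given as GRCm38. Whole reads and library totals were recovered from the FPKM steps with a tolerance of 0.001 reads, for all 28530 genes above 0; 3 reads in a gene of 1 kb equal 0.0684 to 0.108 FPKM.

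A gene entered the test when 3 or more libraries reached 1 FPKM. The test was limma 3.58.1 (trend, two-sided) in R 4.3.3 on log2-transformed FPKM with a pseudocount of 1. All 6 libraries entered, with no covariate, and the threshold was 0.05 after Benjamini-Hochberg adjustment over 13766 genes. Fold changes carry the pseudocount and so understate changes of low genes. A further fit first subtracted the members' shared level. Both were also run on simulated data with the same dispersion for each gene. That is simpler than the data here, so the run does not check the error of single genes. The 34 members and the 12 further lists were chosen with earlier results of these data known. All members are named, and from each further list up to 3 genes with the smallest p, some of which are left out here. Alternatives were other scalings, filters, a pseudocount of 0.1, limma-voom, the replicate number as a block and leaving out each library. Figures used Matplotlib 3.10.9 under Python 3.11.15.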

Additional observations from a re-analysis of the deposited data

How the results depend on the processing

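No called member changed direction under any alternative run, and for genes outside the members only counts were compared. With 1 library left out, uncalled log2 fold changes ran through 0 for Cr2 (-0.054 to 0.13), Fcer2a (-0.066 to 0.36), Fcmr (-0.0048 to 0.36), Spib (-0.033 to 0.31), Cd24a (-0.29 to 0.078), Cd72 (-0.24 to 0.060) and Fcrl1 (-0.35 to 0.0036). Uncalled differences relative to the shared level did so for Cd79a (-0.12 to 0.038), Ebf1 (-0.069 to 0.081), Lyn (-0.0073 to 0.050), Fcer2a (-0.37 to 0.088), Tnfrsf13c (-0.094 to 0.0051) and Cd180 (-0.13 to 0.028), and Fcrla was at 0.000945 with median-ratio scaling and 4.3e-05 with the total without B cell genes. With 1 library left out, the genes called ranged from 485 to 1200 higher and from 511 to 1378 lower, the members called from 7 to 18 higher and 0 lower, and their median log2 fold change from 0.27 to 0.52. The genes of the further lists called ranged from 21 to 42 higher and from 13 to 27 lower, and the members called relative to the shared level from 1 to 4 higher and from 0 to 4 lower. With no filter on low values, 501 genes were higher and 681 lower, 5 members were higher (Fcrl5, Pou2af1, Ly86, Bank1, Ms4a1, Fcgr2b and Btk lost the call), and 19 genes of the further lists were higher and 14 lower; more genes were then tested. The replicate block gave 625 genes higher and 657 lower, 12 members higher (Fcgr2b lost and Cd79b gained the call), and 5 members higher and 4 lower relative to the shared level. The labels join same-numbered libraries only by that number. Their deviations correlated at -0.053, 0.0058 and -0.21, against -0.13 to 0.18 for other pairs, which cannot show whether they were paired. By limma-voom 5 members were higher and 2 lower relative to the shared level, and with each gene's own variance 0 were higher; the cause was not tested. A centre over B-restricted members or over members of at least 10 FPKM kept all 34 relative calls on their side of the threshold. A negative binomial test on the recovered reads was planned and not run, and voom used library totals without a further scaling.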

Other observations

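Genes of immature and germinal centre B cells were few, and a share of 7.02% of all genes tested was called higher, so counts of 0 say little; their difference from the members was not tested. Of 7 tested genes of transitional and precursor B cells, 0 rose and 1 fell (limma adjusted p under 0.05, with 3 at an unadjusted p under 0.05 and a median log2 fold change of -0.14). Rag1, a recombinase gene named after its values were seen, was at 26.8, 35.7 and 68.6 FPKM in Bach2-cKO. In WT it was at 39.6, 52.3 and 31.0 FPKM, and the groups overlapped. Of 12 germinal centre genes 6 were tested, of which 0 rose and 1 fell, the death receptor gene Fas, by 0.77 on the log2 scale; Fas is also expressed in T cells.

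Ciita, the coactivator of MHC class II genes, was named after its values were seen. It averaged 28.9 FPKM in Bach2-cKO and 12.5 FPKM in WT, a log2 fold change of 1.16 (limma adjusted p = 0.0112), and 0.82 relative to the level shared by the members (adjusted p = 0.00284). Jchain, of the plasma cell list and also named after its values were seen, averaged 40.4 FPKM in Bach2-cKO and 15.0 FPKM in WT (log2 fold change 1.38). WT replicate 2 was at 0.706 times the mean of the other WT libraries for Ciita and at 0.678 times for Jchain, against 1.61 times for Cd79a.

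Lists of other cells and states complete the values. Of 8 tested genes of NK and CD8 T cells 6 rose and 0 fell (2 to 8 that rose with 1 library left out), and their sum was 197.3 to 373.7 FPKM in Bach2-cKO and 120.0 to 147.6 FPKM in WT. Of 19 tested genes of B cell activation 5 rose and 1 fell (1 to 4 and 0 to 2 with 1 library left out), with Cd83 at a log2 fold change of 0.60 and Nr4a1, an early gene of antigen receptor signals in B and T cells, at -0.60. Of 6 tested genes of red cells and platelets 0 rose and 1 fell, Itga2b, and 1 passed an unadjusted p under 0.05; their sum was 207.5, 1037 and 794.6 FPKM in Bach2-cKO and 359.0, 523.1 and 188.7 FPKM in WT.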
